A study of Mus musculus with 42 samples.

Results

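The genes described here are 34 mouse genes of glycolysis and of the hypoxia response. They were chosen by name, from a list of glycolytic genes and of genes that hypoxia-inducible factors (HIF) regulate. The list holds 22 glycolytic members, which are 2 glucose transporters, 14 enzymes of the pathway from hexokinase to pyruvate kinase and 6 genes of lactate handling and glycolytic control. It holds 12 other members, which are 10 HIF targets outside glycolysis and the 2 HIF alpha subunits Hif1a and Epas1. All 34 have a line among the 52636 gene lines of the count files, and all 34 passed the filter on low counts that left 17173 genes for testing.

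Glycolysis splits glucose into pyruvate, and cells that run short of oxygen turn pyruvate into lactate in place of burning it in the mitochondria. HIF is a pair of proteins. Its alpha subunit is hydroxylated by prolyl hydroxylases and degraded while oxygen is present, and when oxygen falls it binds short DNA elements and raises the transcription of glycolytic enzymes, glucose and lactate transporters, blood vessel growth factors and collagen hydroxylases. In the brain, neurons and astrocytes use different isoforms of several of these enzymes and transporters, and astrocytes are known for a high rate of glycolysis.

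The RNA-seq data are 9 libraries of primary neuronal cultures from the forebrain of embryonic day 16 mice, with 3 libraries per genotype. Euploid mice carry the normal chromosome set, Ts65Dn mice carry an extra segment of mouse chromosome 16 that models Down syndrome, and Ts65Dn;Brwd1+/- mice carry the same segment together with 1 mutant allele of Brwd1, a chromatin reader gene that lies in the segment, so that its copy number returns to normal. All were bred on a mixed DBA/2J and B6EiC3Sn/J background, and cultures were grown in serum-free neuronal medium and treated with AraC, which kills dividing cells. The extra chromosome also carries genes from the centromeric end of chromosome 17, which do not correspond to human chromosome 21. No member lies on chromosome 16, and the 2 on chromosome 17, Vegfa and Epas1, lie away from that end. Of the 42 samples in the series, the remainder are ChIP-seq libraries of the BAF remodeller ATPases SMARCA2/4 from adult hippocampus (6 to 8 weeks, 2 animals pooled per library) and ATAC-seq libraries of sorted NeuN+ hippocampal nuclei. By label the animals of both assays were adult males. These libraries enter through 6 peak lists, 1 per assay and genotype.

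Total counts over genes ran from 17270070 to 25892802 per library. The libraries labelled Ts65Dn;Brwd1+/- did not show the fall in Brwd1 RNA that could be looked for from their label. Their Brwd1 level was 145, 146 and 124 CPM (counts scaled to the library total and to TMM factors), against 129, 126 and 125 CPM in Ts65Dn and 93.2, 85.9 and 89.2 CPM in euploid libraries, and it did not fall relative to Ts65Dn (log2 fold change 0.13 ± 0.08 SE, edgeR adjusted p = 0.186). A count over the whole gene does not tell a mutant allele from a normal one, so the genotype itself was not tested. By qPCR with separate primers, the paper reports that this cross restored Brwd1 in embryonic forebrain. The libraries labelled Ts65Dn;Brwd1+/- also held Xist at 1409 to 1982 CPM, where the other 6 libraries held 0.526 to 1.12 CPM. Their sum of 4 Y-linked genes was 0.0557 to 0.149 CPM, against 194 to 223 CPM in the other 6. All 9 cultures are labelled as pooled from both sexes, which neither set of libraries bears out. In every comparison with the libraries labelled Ts65Dn;Brwd1+/- genotype and sex cannot be told apart, and no such comparison can be made without them. Markers of cell types moved with genotype as well. The cultures, neuronal by label, also held astrocyte markers, with Gfap at 500.2 to 657 CPM and Slc1a3 at 1109 to 1436 CPM in euploid libraries. The summed level of 12 pan-neuronal markers was 4422 to 5493 CPM in euploid, 1141 to 2910.4 CPM in Ts65Dn and 4673 to 5889.8 CPM in libraries labelled Ts65Dn;Brwd1+/-. Ts65Dn replicate 3 held the lowest sum. In these bulk samples fewer cells of a type and less RNA per cell cannot be told apart. Per the study's methods cortices were dissociated embryo by embryo and animals were not combined, while the labels give the sex of each library as pooled male and female. Which embryos a library holds is not stated in either, so p-values measure the spread between these samples, part of which may be technical.

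Upstream sequences of 8 members are shown because they hold, or lack, the core of the element that HIF binds, ACGTG, and because results below turn on these genes. Each is the 250 bases before the RefSeq start in GRCm38.p6 (the mm10 build of the files), read 5′ to 3′ on the gene's own strand, and none of these windows holds an annotated exon. Capitals mark ACGTG and GCGTG on either strand.
Hk2, hexokinase 2, chr6:82774455-82774704 (minus strand): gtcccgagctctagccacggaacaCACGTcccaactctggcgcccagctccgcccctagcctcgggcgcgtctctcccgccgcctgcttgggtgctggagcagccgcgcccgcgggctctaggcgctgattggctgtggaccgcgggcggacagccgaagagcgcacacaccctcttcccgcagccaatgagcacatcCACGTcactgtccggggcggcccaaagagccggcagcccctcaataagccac
Pgk1, phosphoglycerate kinase, chrX:106186850-106187099 (plus strand): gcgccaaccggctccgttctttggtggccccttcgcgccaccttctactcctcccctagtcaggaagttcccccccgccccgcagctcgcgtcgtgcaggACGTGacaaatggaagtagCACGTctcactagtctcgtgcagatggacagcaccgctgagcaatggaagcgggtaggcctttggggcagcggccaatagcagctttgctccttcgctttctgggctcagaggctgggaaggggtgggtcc
Ldha, lactate dehydrogenase A, chr7:46845554-46845803 (plus strand): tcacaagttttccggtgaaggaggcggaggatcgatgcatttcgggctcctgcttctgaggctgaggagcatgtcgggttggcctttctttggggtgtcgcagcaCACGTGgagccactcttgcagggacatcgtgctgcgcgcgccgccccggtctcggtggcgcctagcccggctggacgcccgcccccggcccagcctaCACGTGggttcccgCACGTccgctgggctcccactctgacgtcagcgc
Slc16a1, the lactate transporter MCT1, chr3:104638414-104638663 (plus strand): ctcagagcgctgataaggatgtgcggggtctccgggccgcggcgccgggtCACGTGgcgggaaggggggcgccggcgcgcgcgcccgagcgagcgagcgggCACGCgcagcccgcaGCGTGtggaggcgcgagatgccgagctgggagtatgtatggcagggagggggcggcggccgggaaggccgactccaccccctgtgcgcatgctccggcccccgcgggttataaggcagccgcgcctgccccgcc
Vegfa, vascular endothelial growth factor A, chr17:46032378-46032627 (minus strand): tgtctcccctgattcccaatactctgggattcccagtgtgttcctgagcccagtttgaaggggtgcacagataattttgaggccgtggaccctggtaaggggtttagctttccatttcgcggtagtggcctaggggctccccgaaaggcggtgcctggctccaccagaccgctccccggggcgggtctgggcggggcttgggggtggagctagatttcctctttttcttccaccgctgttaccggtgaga
Adm, adrenomedullin, chr7:110627407-110627656 (plus strand): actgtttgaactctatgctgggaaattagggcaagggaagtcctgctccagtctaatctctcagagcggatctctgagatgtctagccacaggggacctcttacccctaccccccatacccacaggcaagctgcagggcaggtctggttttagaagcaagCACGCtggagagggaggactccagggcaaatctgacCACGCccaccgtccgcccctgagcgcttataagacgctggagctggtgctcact
P4ha1, a collagen prolyl hydroxylase, chr10:59323046-59323295 (plus strand): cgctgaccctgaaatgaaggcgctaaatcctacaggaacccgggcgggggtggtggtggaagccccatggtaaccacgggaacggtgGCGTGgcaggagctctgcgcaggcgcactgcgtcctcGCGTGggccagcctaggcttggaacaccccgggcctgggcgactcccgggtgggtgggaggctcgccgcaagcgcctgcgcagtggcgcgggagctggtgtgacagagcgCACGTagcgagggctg
Hif1a, the HIF-1 alpha subunit, chr12:73907617-73907866 (plus strand): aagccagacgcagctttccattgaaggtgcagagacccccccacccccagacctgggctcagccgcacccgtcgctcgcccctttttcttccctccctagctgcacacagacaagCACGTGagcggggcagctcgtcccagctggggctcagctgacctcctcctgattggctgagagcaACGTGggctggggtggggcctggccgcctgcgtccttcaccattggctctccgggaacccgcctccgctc

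The ACGTG core stood 5 times in the Ldha window, 3 times in that of Hif1a and 2 times in those of Hk2, Pgk1 and Slc16a1, where CACGTG, which reads the same on both strands, counts on each. P4ha1 held it 1 time. The printed Vegfa window held neither core, and that of Adm held only GCGTG. A second Vegfa window, which lies within the gene and is not printed, held each core 1 time. A window with no match says only that these letters are not in its 250 bases. Promoter entries were found for 31 of the 34 members, and Slc2a3, Ndrg1 and Epas1 had none. Among the 44 windows of the 31 members, 23 (52.3%) held ACGTG, against 16.6% of 32851 mouse promoter windows of the same length. GCGTG stood in 52.3% of the member windows and in 28.2% of all windows. By gene, 9 of 10 other members and 11 of 21 glycolytic members held ACGTG in at least 1 window, against 18.5% of 27025 genes in the promoter table, which had 1.22 windows per gene on average where members had 1.42. These are matches of letters, and HIF binding was not measured.

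The comparison of Ts65Dn with euploid cultures asks what the trisomy changes in these genes. Of the 34 members, 17 passed the test in Ts65Dn against euploid, 11 higher and 6 lower (50.0% of the members). Across all 17173 genes tested 46.7% were called, 25.6% higher and 21.1% lower, so the share of members called is close to the background. Among the 12 other members, 9 rose (75.0%), 1 fell (Bnip3) and 2 were not called, with a median log2 fold change of 0.60. Among the 22 glycolytic members 2 rose (9.09%), 5 fell (22.7%) and 15 were not called, with a median of -0.01. The median over all genes tested was 0.04. Without Ts65Dn replicate 3, which stands apart in its neuronal markers, 5 glycolytic and 9 other members were called, and 38.2% of all genes. The count of glycolytic members also rests on euploid replicate 2, without which 3 were called, and 38.8% of all genes. That library stood apart in its choroid plexus markers, which summed to 729.9 CPM against 119.8 and 145 CPM in the other euploid libraries, and the part of this in the count was not tested. A fit to the 6 euploid and Ts65Dn libraries alone tested 33 members and called 16, where 42.3% of 16801 genes were called. Of the calls above only that of Tpi1 was lost.

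**Figure D1:**
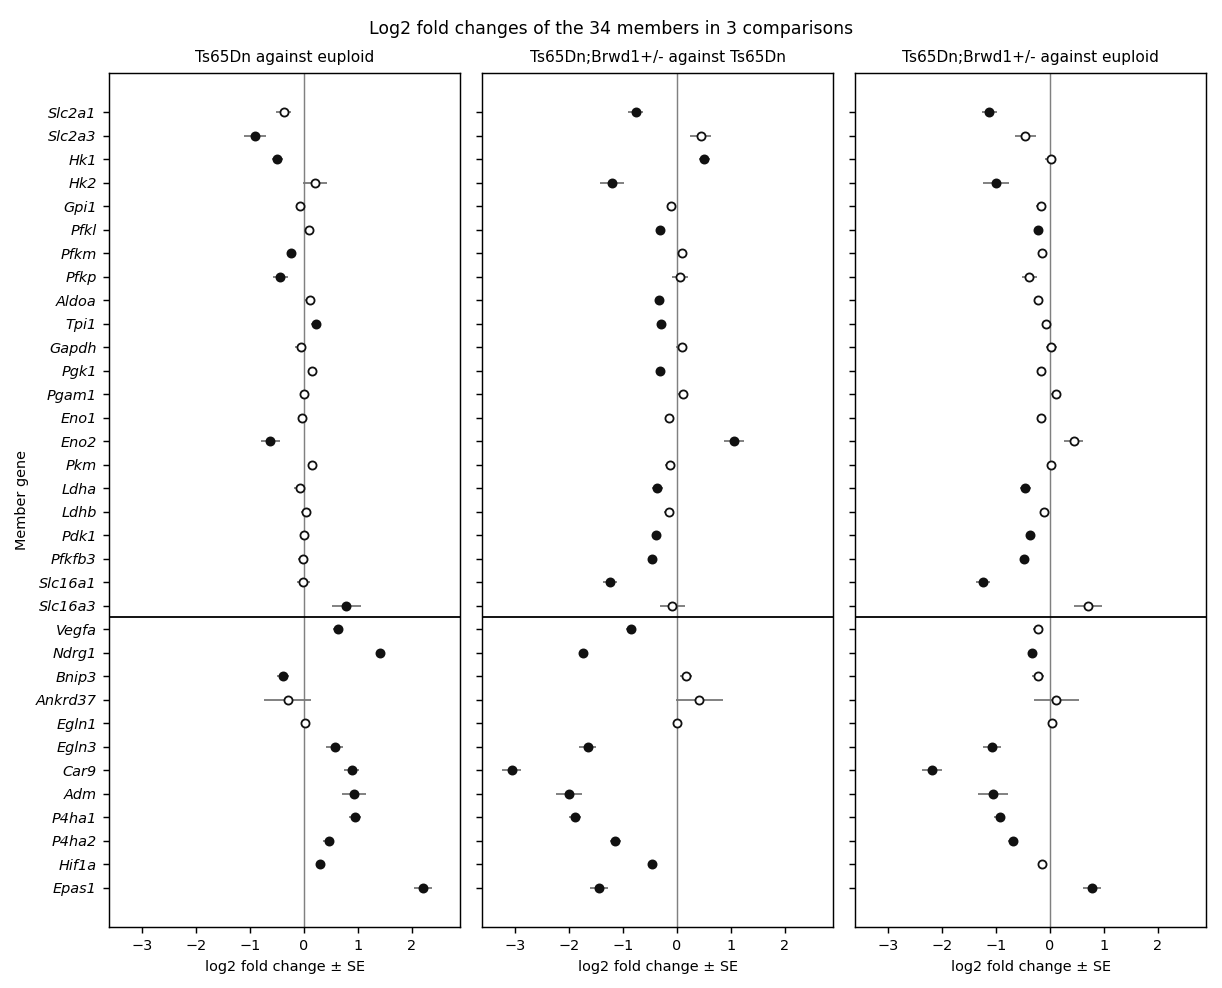
Log2 fold change (horizontal axis) of the 34 members (rows) in the 3 comparisons (panels) from the edgeR fit to 9 libraries. Bars are standard errors and filled points have an adjusted p under 0.05. Most of the other HIF-linked members lie to the right of 0 in Ts65Dn against euploid (median 0.60) and to the left in the comparison of libraries labelled Ts65Dn;Brwd1+/- with Ts65Dn (median -1.29), while the glycolytic members lie nearer to 0 (medians -0.01 and -0.14).

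Ndrg1 and the HIF alpha subunit Epas1 rose furthest among the members. Ndrg1 (ENSMUSG00000005125, chr15:66929318-66969640) encodes a stress-responsive protein that hypoxia induces in many cells. Its level was 65.3, 64.2 and 66.5 CPM in the euploid libraries, 178, 172 and 173 CPM in Ts65Dn, and 51.7, 53.8 and 51.1 CPM in the libraries labelled Ts65Dn;Brwd1+/-. The 3 groups did not overlap, and within each group the libraries lay within a few CPM of each other. Ndrg1 was higher in Ts65Dn than in euploid by 1.41 ± 0.06 on the log2 scale (SE, n = 3 per genotype, edgeR quasi-likelihood adjusted p = 3.92e-07), and the value without Ts65Dn replicate 3 was 1.42. Groups of 3 were free of overlap for 19 of the 34 members in this comparison, against 56.8% of all genes tested.

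Epas1 (ENSMUSG00000024140, chr17:86753700-86833410) encodes HIF-2 alpha, the alpha subunit best known from endothelium. Euploid libraries held 19.9, 25.4 and 30.9 CPM, Ts65Dn libraries 98.0, 126 and 129 CPM, and libraries labelled Ts65Dn;Brwd1+/- 37.4, 43.8 and 49.2 CPM. Every Ts65Dn value exceeded all others, and the libraries labelled Ts65Dn;Brwd1+/- lay between both other groups. Relative to euploid, the Ts65Dn libraries had a log2 fold change of 2.21 ± 0.17 for Epas1 (edgeR adjusted p = 1.27e-05). The endothelial receptor gene Kdr moved with it, at 78.9 to 87.6 CPM in euploid, 651 to 858 CPM in Ts65Dn and 85.3 to 127 CPM in the libraries labelled Ts65Dn;Brwd1+/-. Summed over all 12 endothelial and pericyte markers the ranges were 138 to 159.7, 730.4 to 962 and 136 to 187 CPM in the same order, most of it Kdr in Ts65Dn. Of the 5 of these markers tested, 2 rose in Ts65Dn, Kdr and Pdgfrb, none fell, and the median log2 fold change was -0.05. Of all 12 markers, 8 stayed under 1 CPM in every library, among them the defining endothelial genes Pecam1, Cldn5 and Cdh5. The 12 fibroblast and meningeal markers summed to 335 to 435 CPM in euploid, 878 to 1421 CPM in Ts65Dn and 217 to 260.5 CPM in the libraries labelled Ts65Dn;Brwd1+/-, and 8 of 12 rose and 4 fell in Ts65Dn. The part of these cell type markers in the HIF-linked results was not tested.

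Hif1a (ENSMUSG00000021109, chr12:73901375-73947530) encodes the more widely expressed alpha subunit. It stood at 88.0, 82.6 and 87.6 CPM in euploid libraries, at 97.2, 108 and 113 CPM in Ts65Dn, and at 79.1, 80.2 and 73.5 CPM in libraries labelled Ts65Dn;Brwd1+/-. The groups did not overlap, but the steps between them were smaller than those of Epas1. Hif1a was 0.30 ± 0.07 higher in Ts65Dn on the log2 scale (edgeR adjusted p = 0.00859), a call that missed the threshold when every gene with a count was tested (adjusted p = 0.0525). Per kilobase of exon, the euploid level was 14.6 CPM for Hif1a and 4.54 CPM for Epas1.

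The collagen prolyl hydroxylases, which make collagen able to fold, rose together. P4ha1 (ENSMUSG00000019916, chr10:59323296-59373304) was at 252, 244 and 244 CPM in euploid, at 402, 520.1 and 506 CPM in Ts65Dn, and at 115, 139.7 and 133 CPM in the libraries labelled Ts65Dn;Brwd1+/-. All 3 groups were apart, with Ts65Dn highest. The log2 fold change of P4ha1 in Ts65Dn against euploid was 0.95 ± 0.11 (edgeR adjusted p = 1.58e-04), and that of P4ha2, its lower expressed relative, was 0.46 ± 0.10 (edgeR adjusted p = 0.00458). Vegfa (ENSMUSG00000023951, chr17:46016993-46032369), the main growth signal for blood vessels, was at 73.2, 95.1 and 80.3 CPM in euploid, at 121, 133 and 129.6 CPM in Ts65Dn and at 73.4, 70.8 and 69.3 CPM in the libraries labelled Ts65Dn;Brwd1+/-. Only the Ts65Dn libraries stood apart from both other groups, by 0.63 ± 0.09 over euploid on the log2 scale (edgeR adjusted p = 6.75e-04).

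Car9 and Adm were expressed at low levels. Car9 (ENSMUSG00000028463, chr4:43506966-43513729) encodes a membrane carbonic anhydrase that is widely used as a hypoxia marker. It was at 6.60, 6.10 and 6.78 CPM in euploid, at 10.5, 11.7 and 13.9 CPM in Ts65Dn, and at 1.16, 1.28 and 1.79 CPM in the libraries labelled Ts65Dn;Brwd1+/-. The 3 groups did not overlap, and Car9 was 0.89 ± 0.14 higher in Ts65Dn on the log2 scale (edgeR adjusted p = 0.00102). Adm (ENSMUSG00000030790, chr7:110627661-110629820), which encodes a peptide that widens blood vessels, rested on 11 to 77 counts per library. Its level was 1.55, 1.62 and 1.55 CPM in euploid, 2.33, 3.36 and 3.40 CPM in Ts65Dn, and 0.491, 0.835 and 0.933 CPM in the libraries labelled Ts65Dn;Brwd1+/-. Adm was 0.93 ± 0.22 higher in Ts65Dn on the log2 scale (edgeR adjusted p = 0.00624).

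Egln1 and Egln3 encode prolyl hydroxylases that mark HIF alpha for degradation, and both are HIF targets themselves. Egln3 rose in Ts65Dn by 0.57 ± 0.16 (edgeR adjusted p = 0.0140), with 40.6 to 50.4 CPM in euploid and 55.3 to 85.1 CPM in Ts65Dn, a call that was lost without euploid replicate 1. Egln1 kept between 64.3 and 74.5 CPM in all 9 libraries and was called in no comparison, with a log2 fold change of 0.03 ± 0.08 in Ts65Dn. Bnip3, a mediator of mitochondrial removal, was the only other member that fell (log2 fold change -0.38 ± 0.11, edgeR adjusted p = 0.0146), and it lost its call without Ts65Dn replicate 3. It has 4 further near-identical copies in the genome. Ankrd37 had 4 to 13 counts per library, shares 57 bp of exon with Ufsp2, and was called nowhere.

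**Figure D2:**
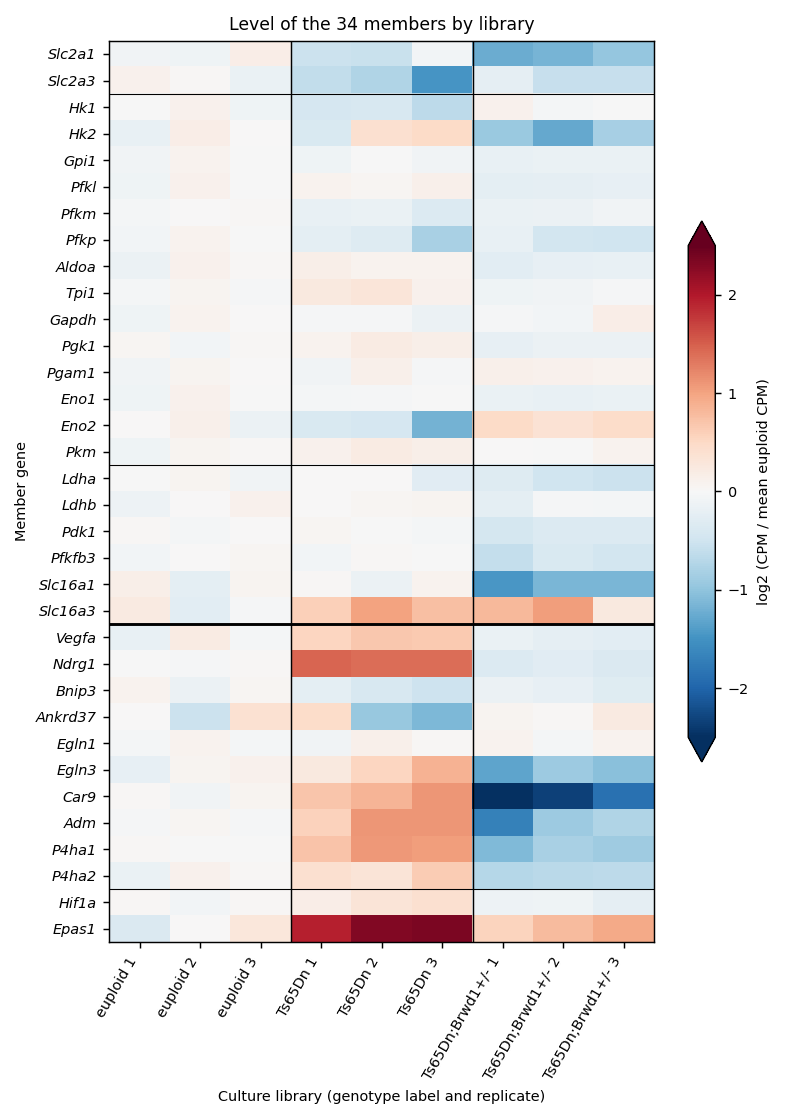
Heat map of log2(CPM / mean euploid CPM) for the 34 members (rows) in the 9 culture libraries (columns), with red above and blue below the euploid mean. The Ts65Dn columns are red for Epas1 (98.0 to 129 CPM against 19.9 to 30.9 CPM) and Ndrg1, and the columns of libraries labelled Ts65Dn;Brwd1+/- are blue for Car9 (1.16 to 1.79 CPM) and Slc16a1.

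The 5 glycolytic members that fell in Ts65Dn were Slc2a3, Hk1, Pfkm, Pfkp and Eno2. Slc2a3 (ENSMUSG00000003153, chr6:122727809-122801640) encodes GLUT3, the glucose transporter of neurons. Its level was 204, 194 and 169 CPM in euploid, 124, 112 and 67.6 CPM in Ts65Dn and 161, 126 and 127 CPM in libraries labelled Ts65Dn;Brwd1+/-. Ts65Dn was lowest in every library, and its replicate 3 was lowest of all. Slc2a3 fell by 0.90 ± 0.20 on the log2 scale in Ts65Dn (edgeR adjusted p = 0.00483), and the log2 fold change without Ts65Dn replicate 3 was -0.68 (edgeR adjusted p = 9.14e-04). Slc2a1 (ENSMUSG00000028645, chr4:119108711-119137983) encodes GLUT1, the transporter of astrocytes and of the blood-brain barrier. It was at 226, 221 and 269 CPM in euploid, at 165, 163 and 228 CPM in Ts65Dn and at 101, 106 and 122 CPM in libraries labelled Ts65Dn;Brwd1+/-. Ts65Dn replicate 3 overlapped the euploid range, and the log2 fold change of -0.37 ± 0.14 missed the threshold (edgeR adjusted p = 0.0553). With the replicate number as a block the value was -0.38 (edgeR adjusted p = 0.00347), and without Ts65Dn replicate 3 it was -0.54 (edgeR adjusted p = 0.00184), both past it.

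Hk1 (ENSMUSG00000037012, chr10:62268855-62379908) is the hexokinase of brain, and it phosphorylates glucose as it enters the pathway. Euploid libraries held 506, 548 and 473 CPM, Ts65Dn libraries 378, 387 and 324 CPM, and libraries labelled Ts65Dn;Brwd1+/- 546, 492 and 508 CPM. Only Ts65Dn stood apart and was lower, with a log2 fold change of -0.49 ± 0.10 against euploid (edgeR adjusted p = 0.00271). Hk2 (ENSMUSG00000000628, chr6:82725025-82774454), the HIF-regulated hexokinase of muscle and of many tumours, was far lower, at 37 to 158 counts per library. It was at 4.37, 5.61 and 5.01 CPM in euploid, at 3.84, 6.62 and 6.97 CPM in Ts65Dn and at 2.63, 2.06 and 2.80 CPM in libraries labelled Ts65Dn;Brwd1+/-. The euploid and Ts65Dn ranges overlapped (log2 fold change 0.21 ± 0.22, edgeR adjusted p = 0.462). Without Ts65Dn replicate 1 the log2 fold change was 0.44 (edgeR adjusted p = 0.0441).

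Among the later enzymes, Pfkm and Pfkp, 2 of the 3 phosphofructokinases, fell by 0.23 ± 0.08 and 0.44 ± 0.14 (edgeR adjusted p = 0.0285 and 0.0304). Both lost their call without Ts65Dn replicate 3 and also without euploid replicate 2, Pfkp did so without euploid replicate 1 too, and it shares 748 bp of exon with Pitrm1 on the opposite strand. Eno2 (ENSMUSG00000004267, chr6:124760053-124769673), the neuronal enolase, was at 159.8, 175 and 144 CPM in euploid, at 122, 119 and 70.4 CPM in Ts65Dn and at 223, 206 and 219 CPM in libraries labelled Ts65Dn;Brwd1+/-. The groups were apart, with Ts65Dn lowest and its replicate 3 well under the other two. Eno2 fell by 0.62 ± 0.18 on the log2 scale in Ts65Dn (edgeR adjusted p = 0.0165). The log2 fold change was -0.41 without Ts65Dn replicate 3 (edgeR adjusted p = 0.00491), and -0.55, past no threshold, without euploid replicate 2 (edgeR adjusted p = 0.0609). Neuronal markers fell in the same libraries. Of the 12 pan-neuronal markers 9 fell and none rose in Ts65Dn, and the part of that shift in the fall of Slc2a3, Hk1 and Eno2 was not tested.

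The 2 glycolytic members that rose were Tpi1, triosephosphate isomerase, by 0.22 ± 0.08 (edgeR adjusted p = 0.0337), and Slc16a3, the lactate exporter MCT4, by 0.79 ± 0.26 (edgeR adjusted p = 0.0291). Tpi1 has 2 further near-identical copies, and its call was lost in 11 of 16 alternatives, among them scaling by library totals alone and both other filters on low counts. Slc16a3 had 15 to 32 counts per library and lost its call under DESeq2 and without euploid replicate 2 or 3 or Ts65Dn replicate 2 or 3. Pgk1 (ENSMUSG00000062070, chrX:106187100-106203699), which makes ATP in the later steps of the pathway, was at 113, 104 and 112 CPM in euploid, at 117, 127 and 122 CPM in Ts65Dn and at 94.9, 98.5 and 99.4 CPM in libraries labelled Ts65Dn;Brwd1+/-. The ranges did not overlap, yet the log2 fold change of 0.15 ± 0.07 in Ts65Dn was not called (edgeR adjusted p = 0.0889). Gpi1, Pfkl, Aldoa, Gapdh, Pgam1, Eno1, Pkm, Ldhb and Pfkfb3 had log2 fold changes between -0.07 and 0.15 and were not called.

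Ldha (ENSMUSG00000063229, chr7:46841475-46855627) makes lactate from pyruvate. It was at 229, 242 and 217 CPM in euploid, at 229.9, 231 and 188 CPM in Ts65Dn and at 183, 162 and 159 CPM in libraries labelled Ts65Dn;Brwd1+/-. Euploid and Ts65Dn overlapped (log2 fold change -0.08 ± 0.10, edgeR adjusted p = 0.523). Pdk1 (ENSMUSG00000006494, chr2:71873224-71903858), which blocks the entry of pyruvate into the citric acid cycle, was at 43.5, 41.3 and 43.2 CPM in euploid, at 44.3, 42.3 and 41.5 CPM in Ts65Dn and at 31.4, 33.8 and 33.5 CPM in libraries labelled Ts65Dn;Brwd1+/-. Its log2 fold change in Ts65Dn was 0.00 ± 0.07. Slc16a1 (ENSMUSG00000032902, chr3:104638668-104658462) carries lactate across the membrane. Euploid libraries held 259, 198 and 247 CPM and Ts65Dn libraries 239, 212 and 250.1 CPM, whose ranges overlapped, while libraries labelled Ts65Dn;Brwd1+/- held 85.3, 106 and 106 CPM. In Ts65Dn against euploid the log2 fold change of Slc16a1 was -0.01 ± 0.12.

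**Figure D3:**
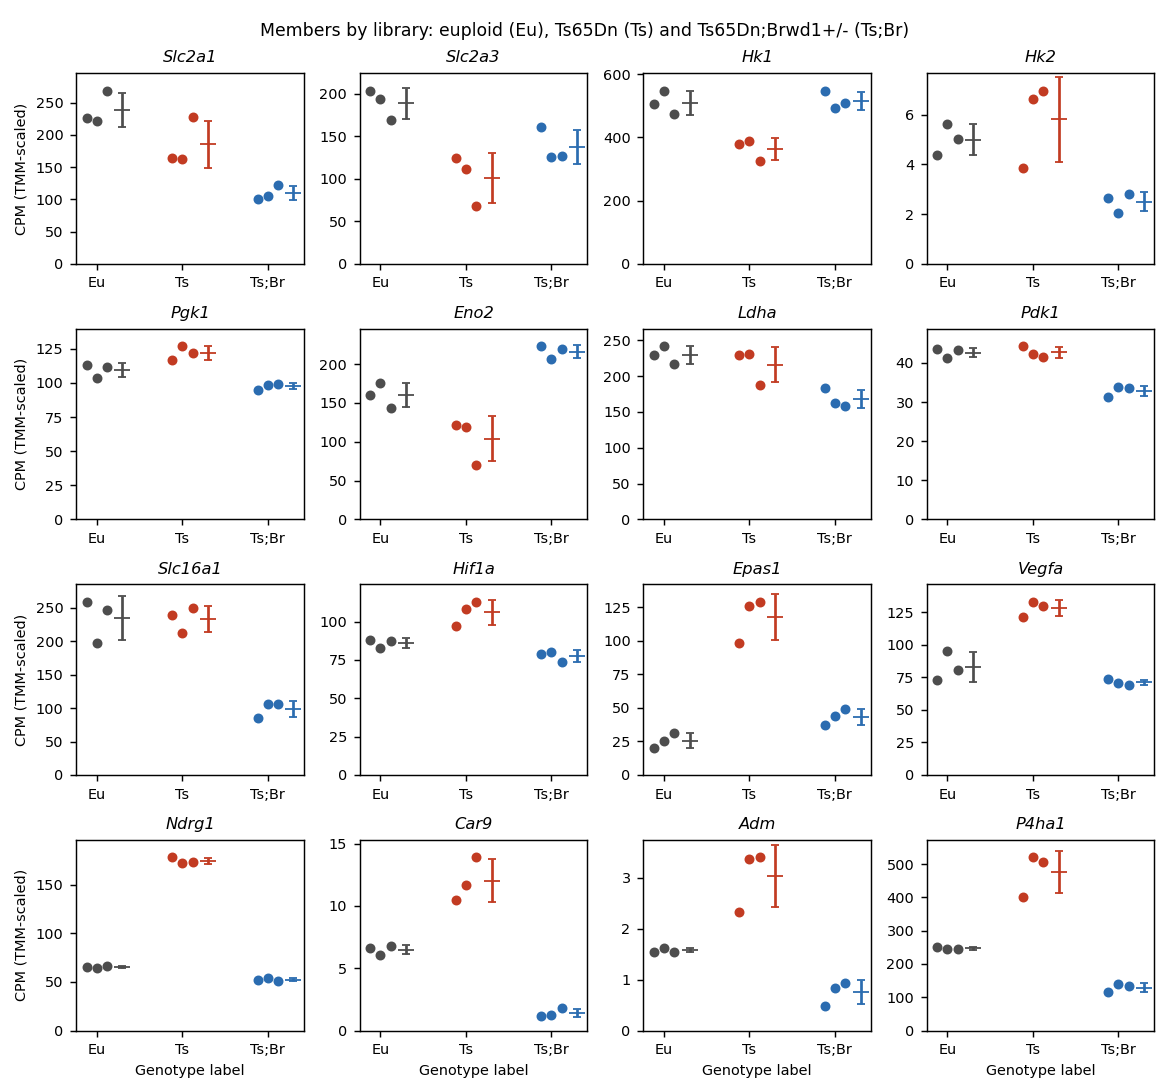
CPM (vertical axes, from 0) of 16 members in each culture library, with points for libraries and bars for mean ± SD (n = 3), for euploid (Eu), Ts65Dn (Ts) and the libraries labelled Ts65Dn;Brwd1+/- (Ts;Br). Ndrg1, Vegfa, P4ha1, Car9 and Adm are highest in Ts65Dn, Slc2a3, Hk1 and Eno2 are lowest there, and Slc2a1, Slc16a1, Ldha and Pdk1 are lowest in the libraries labelled Ts65Dn;Brwd1+/-.

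The comparison of libraries labelled Ts65Dn;Brwd1+/- with Ts65Dn was designed to ask what changes when Brwd1 copy number is restored. It shares its Ts65Dn libraries with the comparison above. Of the 34 members, 21 passed the test, 2 higher and 19 lower (61.8%), where 58.1% of all genes tested were called, 27.6% higher and 30.5% lower. Of the 22 glycolytic members 2 rose and 10 fell, with a median log2 fold change of -0.14. Of the 12 other members none rose and 9 fell, with a median of -1.29, against 0.00 over all genes tested. Groups were free of overlap for 27 of 34 members and for 68.4% of all genes.

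The largest falls were those of Car9 (log2 fold change -3.06 ± 0.17, edgeR adjusted p = 9.21e-07), Adm (-1.99 ± 0.24, edgeR adjusted p = 8.17e-05) and P4ha1 (-1.88 ± 0.11, edgeR adjusted p = 1.37e-06). Ndrg1 followed with -1.74 ± 0.06 (edgeR adjusted p = 7.49e-08), Egln3 with -1.65 ± 0.16 (edgeR adjusted p = 2.11e-05), Epas1 with -1.44 ± 0.17 (edgeR adjusted p = 5.62e-05) and P4ha2 with -1.14 ± 0.10 (edgeR adjusted p = 1.13e-05). Vegfa and Hif1a had smaller falls, with -0.85 ± 0.09 and -0.45 ± 0.07 (edgeR adjusted p = 4.40e-05 and 5.81e-04). Bnip3, Ankrd37 and Egln1 were not called.

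Slc16a1, Hk2 and Slc2a1 had the largest glycolytic falls in this comparison. The log2 fold change was -1.24 ± 0.13 for Slc16a1 (edgeR adjusted p = 2.46e-05), -1.20 ± 0.23 for Hk2 (edgeR adjusted p = 0.00157) and -0.76 ± 0.14 for Slc2a1 (edgeR adjusted p = 0.00117). Pfkfb3, which makes the activator of phosphofructokinase, fell by 0.46 ± 0.08 (edgeR adjusted p = 6.03e-04). Pdk1, Ldha, Aldoa, Pgk1, Pfkl and Tpi1 fell by smaller steps, with log2 fold changes from -0.38 to -0.29. The call of Ldha (edgeR adjusted p = 0.0104) was lost when replicate 3 labelled Ts65Dn;Brwd1+/- was left out (edgeR adjusted p = 0.0513). Pgk1 lies on the X chromosome, and the part of sex in its fall cannot be told apart from that of genotype. Eno2 and Hk1 rose, by 1.06 ± 0.18 and 0.51 ± 0.10 (edgeR adjusted p = 6.42e-04 and 0.00130). Slc2a3 had a log2 fold change of 0.44 ± 0.20 with groups apart and missed the threshold (edgeR adjusted p = 0.0774). It was 0.22 without Ts65Dn replicate 3 (edgeR adjusted p = 0.148) and 0.62 without Ts65Dn replicate 1 (edgeR adjusted p = 0.0252), and it also passed with library totals alone, with no filter, with the block and with the factor of unwanted variation. The pan-neuronal markers went the same way as Eno2 and Hk1, with 9 of 12 higher and none lower, and their part in it was not tested.

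Against euploid, 14 members were called in the libraries labelled Ts65Dn;Brwd1+/-, 1 higher and 13 lower (41.2%), where 29.2% of all genes tested were called, 14% higher and 15.2% lower. Of the glycolytic members 7 fell and of the other members 6 fell and 1 rose. With 1 factor of unwanted variation in the fit, 12 glycolytic members were called, where the share of all genes called was 38.1%. The largest falls were those of Car9 (log2 fold change -2.18 ± 0.18, edgeR adjusted p = 3.03e-05), Slc16a1 (-1.24 ± 0.13, edgeR adjusted p = 9.88e-05) and Slc2a1 (-1.12 ± 0.14, edgeR adjusted p = 3.36e-04). Adm, P4ha1, P4ha2, Egln3 and Ndrg1 also lay under euploid, with log2 fold changes from -1.07 to -0.32. Hk2, Pfkfb3, Ldha, Pdk1 and Pfkl made up the rest of the falls, from -0.99 ± 0.24 for Hk2 to -0.22 ± 0.07 for Pfkl, whose call was lost in 9 of 16 alternatives. Epas1 was the member that rose, by 0.78 ± 0.17 (edgeR adjusted p = 0.00676). Groups were free of overlap for 25 of 34 members and for 45.9% of all genes.

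Set side by side, the calls of the 3 comparisons in the fit to all 9 libraries gave 9 patterns. Ndrg1, Egln3, Car9, Adm, P4ha1 and P4ha2 were called higher in Ts65Dn than in euploid, and lower in the libraries labelled Ts65Dn;Brwd1+/- than in either other group. Vegfa and Hif1a were higher in Ts65Dn than in both, with no call between the other groups, and so was Tpi1, with the weak call described above. Epas1 alone was higher in Ts65Dn than in both and also higher than euploid in the libraries labelled Ts65Dn;Brwd1+/-. Hk1 and Eno2 were lower in Ts65Dn than in both. Slc2a3, Pfkm, Pfkp and Bnip3, all lower, and Slc16a3, higher, were called in Ts65Dn against euploid alone. In that fit Slc2a1, Hk2, Pfkl, Ldha, Pdk1, Pfkfb3 and Slc16a1 were called lower in both comparisons with the libraries labelled Ts65Dn;Brwd1+/- and not in Ts65Dn against euploid, where Slc2a1 passed in 8 of 16 alternatives, DESeq2 among them, and Hk2 in 1. Aldoa and Pgk1 were called lower against Ts65Dn alone. Some of these patterns depend on the fit, since in the libraries labelled Ts65Dn;Brwd1+/- against euploid Pfkp gained a call in 6 of 16 alternatives, Slc2a3 in 5, Eno2 in 4, Aldoa in 3, and Pgk1, Slc16a3 and Vegfa in 1 each. Against Ts65Dn, Slc2a3 gained a call in 5. Gpi1, Gapdh, Pgam1, Eno1, Pkm, Ldhb, Ankrd37 and Egln1 were called in none. These patterns follow from the same 9 libraries and are not independent of each other.

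Per kilobase of exon, Aldoa was the most abundant member in euploid cultures, at 179.6 CPM per kb, followed by Ldhb at 169, Pkm at 107 and Pfkm at 103 CPM per kb. Gapdh was at 3.39 CPM per kb, and it has 198 further near-identical copies in the genome, so that its count is uncertain. Ldha has 15 such copies, Aldoa 7, Pkm 4, Pgam1 3 and Pgk1 2, and 11 members in all have at least 1. The lowest were Slc16a3 at 0.148 and Ankrd37 at 0.250 CPM per kb.

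Isoform shares per length put neuronal and widespread isoforms on 1 scale. Of the 2 enolases, Eno1, the widespread form, made up 55.0%, 56.2% and 59.2% of the per-length level in euploid libraries, 62.2%, 63.4% and 74.8% in Ts65Dn, and 45.6%, 47.3% and 46.0% in libraries labelled Ts65Dn;Brwd1+/-. The 3 groups did not overlap, although Eno1 itself was called in no comparison. The share of Slc2a1 against Slc2a3 was 69.6%, 70.2% and 76.7% in euploid, 73.3%, 75.0% and 87.4% in Ts65Dn and 56.3%, 63.4% and 66.5% in libraries labelled Ts65Dn;Brwd1+/-, with euploid and Ts65Dn overlapping. Egln1 made up 54.6%, 52.1% and 49.3% of Egln1 and Egln3 in euploid, 46.3%, 44.8% and 37.6% in Ts65Dn and 73.9%, 66.2% and 70.1% in libraries labelled Ts65Dn;Brwd1+/-, without overlap. Hk2 stayed a minor hexokinase, between 0.595% and 2.98% in all libraries. Ts65Dn replicate 3 was the extreme library in each of these 4 families on the Ts65Dn side. Shares are given as a description, and no test was run on them.

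**Figure D4:**
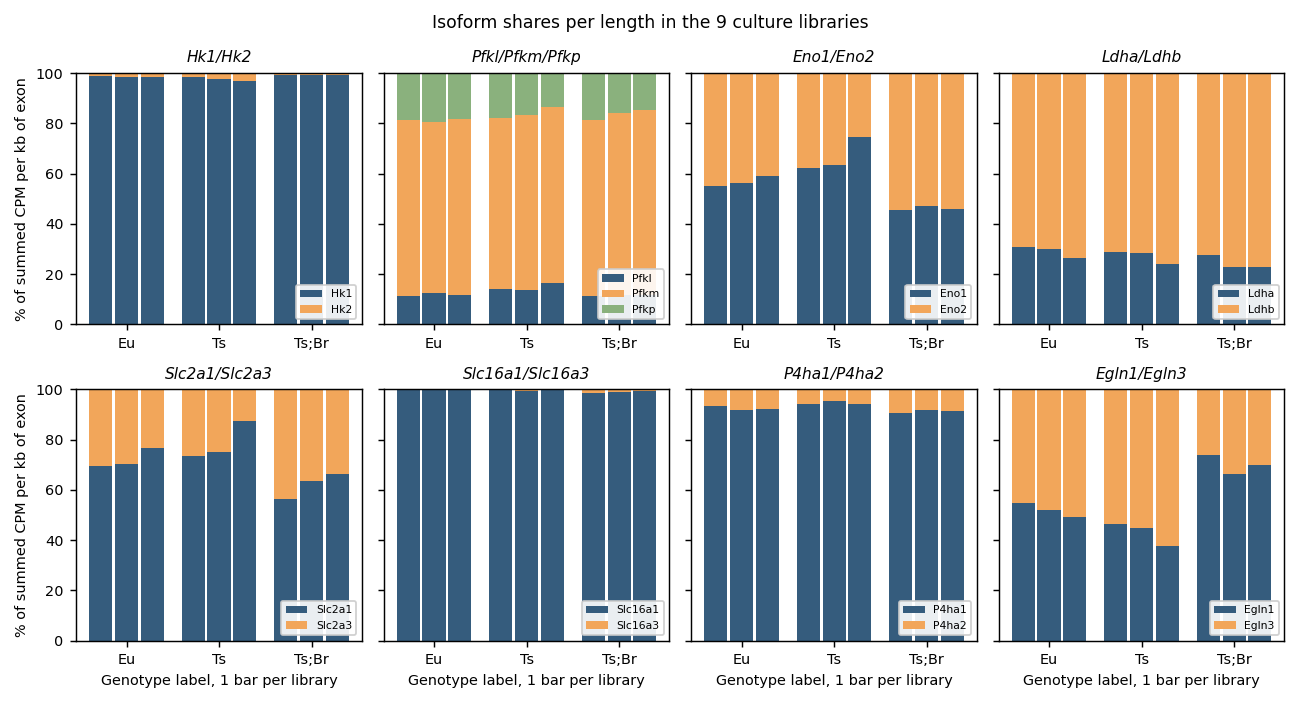
Stacked bars of isoform shares (percent of the family's CPM per kilobase of exon, vertical axes) in each of the 9 culture libraries for 8 families. Eno1 takes its largest share in Ts65Dn (62.2% to 74.8%) and its smallest in libraries labelled Ts65Dn;Brwd1+/- (45.6% to 47.3%), and Hk2 stays under 3% throughout.

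Other genes of the pathway were counted from lists chosen by function. Each count stands beside the shares over all genes tested. In Ts65Dn against euploid 25.6% of all genes were higher and 21.1% lower. In libraries labelled Ts65Dn;Brwd1+/- against Ts65Dn 27.6% were higher and 30.5% lower. Of 26 further HIF targets tested, 12 rose and 2 fell in Ts65Dn against euploid (median log2 fold change 0.23), and 2 rose and 18 fell in libraries labelled Ts65Dn;Brwd1+/- against Ts65Dn (median -0.61). The 3 with the smallest adjusted p modify collagen. Loxl2, a collagen cross-linking oxidase, was at 33.1 to 39.8 CPM in euploid, 169.8 to 219.8 CPM in Ts65Dn and 23.2 to 32.7 CPM in the libraries labelled Ts65Dn;Brwd1+/-, with no overlap. Relative to euploid it had a log2 fold change of 2.43 in Ts65Dn (edgeR adjusted p = 2.84e-06) and, relative to Ts65Dn, one of -2.76 in the libraries labelled Ts65Dn;Brwd1+/- (edgeR adjusted p = 7.70e-07). The lysyl hydroxylase genes Plod2 and Plod1 had 1.15 and 1.13 (edgeR adjusted p = 2.02e-04 and 6.29e-05), then -1.84 and -1.43 (edgeR adjusted p = 4.94e-06 and 5.82e-06).

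Regulators of the HIF pathway were divided. Of 15, 3 rose and 6 fell in Ts65Dn, and 4 rose and 2 fell in libraries labelled Ts65Dn;Brwd1+/- against Ts65Dn. Hif1an, which encodes the asparaginyl hydroxylase that inhibits HIF, was at 64.3 to 67.0 CPM in euploid, 47.4 to 50.0 CPM in Ts65Dn and 70.3 to 74.1 CPM in the libraries labelled Ts65Dn;Brwd1+/-. It fell by 0.42 on the log2 scale in Ts65Dn (edgeR adjusted p = 5.33e-04) and was 0.55 higher in the second comparison (edgeR adjusted p = 4.25e-05). Egln2, a further prolyl hydroxylase, had log2 fold changes of -0.29 and 0.52 (edgeR adjusted p = 0.0193 and 5.77e-04). Nfkb1, a transcription factor that acts on Hif1a, had 0.43 and -0.88 (edgeR adjusted p = 0.0231 and 3.35e-04).

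Of 12 other glycolytic isoforms tested, 2 rose and 2 fell in Ts65Dn, and 4 rose and 3 fell in the next comparison. Galm, which converts the ring forms of sugars, had log2 fold changes of 1.08 and -1.95 (edgeR adjusted p = 9.67e-04 and 1.84e-05), with 2.11 to 2.50 CPM in euploid. Eno3, the muscle enolase, had 0.42 and -0.58 (edgeR adjusted p = 0.0184 and 0.00275). Adpgk, a glucokinase that uses ADP, had 0.00 and -0.31 (edgeR adjusted p = 0.989 and 0.00738). Of 15 other glycolytic regulators, 4 rose and 5 fell in Ts65Dn, and 4 rose and 3 fell in libraries labelled Ts65Dn;Brwd1+/- against Ts65Dn. Pdk2 and the X-linked Pdk3, relatives of Pdk1, rose by 0.76 and 0.55 in Ts65Dn (edgeR adjusted p = 8.66e-04 and 0.00296), where Pdk1 had 0.00. In libraries labelled Ts65Dn;Brwd1+/- against Ts65Dn, Pdk2 and Pdk3 had -0.81 and -0.74 (edgeR adjusted p = 2.65e-04 and 3.00e-04). Pdp1, the phosphatase that reverses what these kinases do, had 0.37 and -1.41 (edgeR adjusted p = 0.0352 and 1.21e-05).

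The peak lists come from adult hippocampus of males by label, and each list pools the libraries of its genotype. The culture libraries labelled Ts65Dn;Brwd1+/-, in contrast, carried Xist and almost no Y-linked transcripts. The depth behind each list is unknown here, and no test between lists was made. In all, 221 peaks name a member. In ATAC-seq, which marks open chromatin, 27 members were named in the euploid list (79.4%), 30 in the Ts65Dn list (88.2%) and 31 in the list of Ts65Dn;Brwd1+/- (91.2%). The shares over all genes tested in the cultures were 53.3%, 66.0% and 65.6%. A promoter peak, within 1 kb of an annotated start, stood in all 3 ATAC lists for 25 members, which were 19 of 22 glycolytic and 6 of 12 other members. List by list, 27, 27 and 28 members had a promoter peak (79.4%, 79.4% and 82.4%), where 48.8%, 59.4% and 58.4% of all genes tested did. The lists themselves hold 15521, 29195 and 30244 peaks, and peaks naming members followed that order at 39, 53 and 58. Of the 39 euploid peaks at members, 37 overlapped a Ts65Dn peak by at least 1 bp (94.9%, against 96.7% of all euploid peaks), and of the 53 Ts65Dn peaks 33 overlapped a euploid peak (62.3%, against 49.9%).

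The members that moved most in culture differed in their ATAC peaks. The fold enrichment over background at the P4ha1 promoter was 8.05, 8.15 and 7.81 in euploid, Ts65Dn and Ts65Dn;Brwd1+/- in that order, in a peak that covers the upstream window printed above, and that at Hif1a was 6.71, 8.13 and 7.40. Pgk1 had 5.96, 6.99 and 7.04, and Hk2, low in culture RNA, had 4.74, 5.03 and 4.29. Vegfa had promoter peaks in the Ts65Dn list (highest fold enrichment 4.36) and in that of Ts65Dn;Brwd1+/- (2.68) and none in the euploid list, which is also the shortest. Ndrg1 had one in the euploid list (3.27) and in that of Ts65Dn;Brwd1+/- (2.35) and none in the Ts65Dn list. Egln3, Car9, Adm and Epas1 had no ATAC promoter peak in any list, and Car9 was named in no list at all. The ATAC nuclei were sorted neuronal nuclei of adult mice, not the embryonic cultures that gave the RNA.

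**Figure D5:**
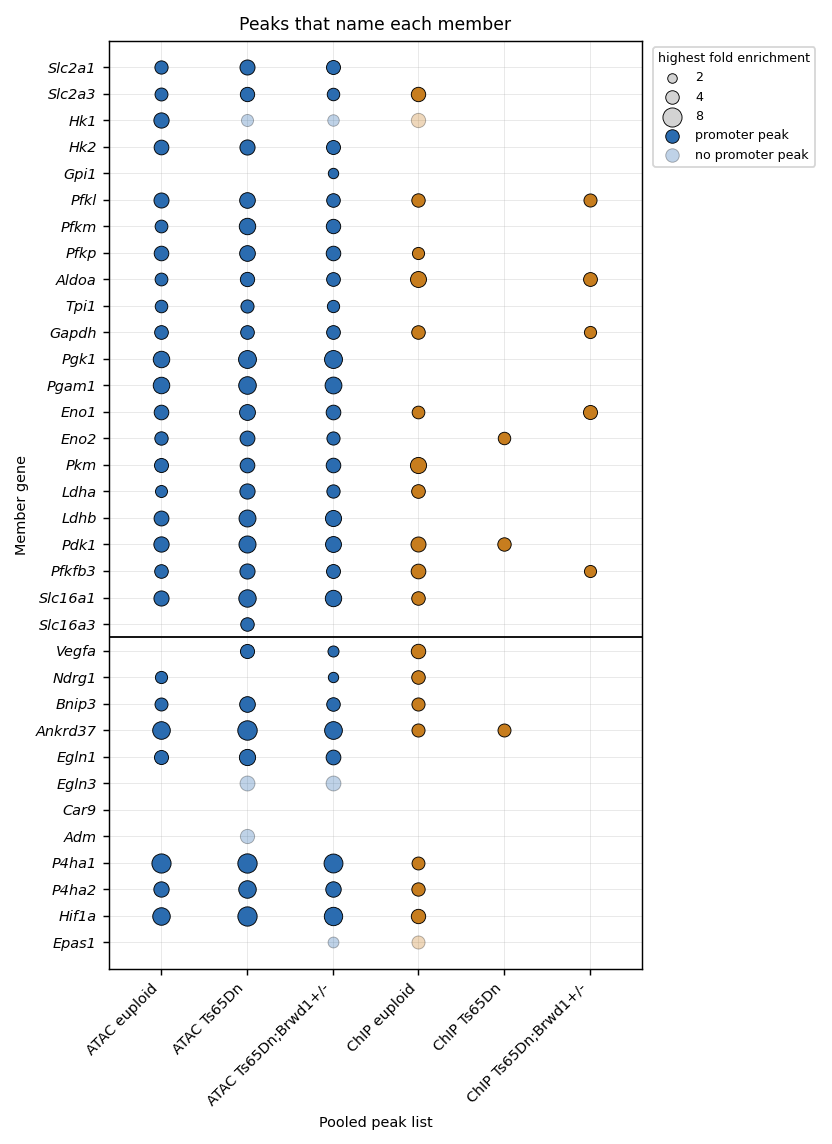
Peaks naming each of the 34 members (rows) in the 6 lists (columns), with dot area for the highest fold enrichment, blue for ATAC-seq, orange for SMARCA2/4 ChIP-seq, and pale dots where no peak lies in the promoter. ATAC-seq peaks name 27, 30 and 31 members, while the ChIP-seq peaks are nearly all in the euploid list, with 20 members against 3 and 5.

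In SMARCA2/4 ChIP-seq, 20 members were named in the euploid list (58.8%, against 38.6% of all genes tested), 3 in the Ts65Dn list (8.82%, against 4.14%) and 5 in that of Ts65Dn;Brwd1+/- (14.7%, against 4.89%). The lists hold 22667, 1290 and 1873 peaks, so that members followed the size of the lists. Promoter peaks named 18, 3 and 5 members in the same order (52.9%, 8.82% and 14.7%), against 32.1%, 2.00% and 2.81% of all genes. At a q-value under 0.05 and a fold enrichment over 1.2, the filter that the study's methods state, 20, 0 and 2 members were named, against 36.1%, 1.17% and 2.67% of all genes. In the euploid list Vegfa had 3 promoter peaks (highest fold enrichment 4.58, q = 9.11e-05), Pdk1 had 3 (highest 4.94), Hif1a 2 (highest 4.52, q = 1.93e-04), Ndrg1 1 (4.02, q = 0.00227) and P4ha1 1 (3.65, q = 0.00284). Pkm had 8 peaks and Pfkfb3 6. The Ts65Dn list named Pdk1 (q = 0.0903), Eno2 (q = 0.750) and Ankrd37 (q = 0.293), none with a q-value under 0.05. The list of Ts65Dn;Brwd1+/- named Aldoa, Eno1, Gapdh, Pfkfb3 and Pfkl, all glycolytic, and only Eno1 (q = 8.38e-04) and Aldoa (q = 0.0187) had a peak under 0.05. No euploid ChIP peak at a member overlapped a Ts65Dn peak (0 of 62), where 2.65% of all euploid peaks did.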

How the data were processed

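RNA-seq libraries of 9 cultures (3 per genotype, grouped by the labels) and 6 peak lists were used. The authors aligned reads to mm10 with HISAT2 and counted them per Ensembl gene with featureCounts, and the deposited values are raw counts. Between 37.4% and 40.0% of the counts lay in 5 summary lines, which name no gene and were left out. Whether counting used strand is not given in the sources used here. Peaks were called by the authors with MACS on pooled libraries, and the deposited lists give a fold enrichment (a ratio), a q-value and a gene name per peak. Peaks of a second Aldoa gene record were counted for Aldoa.

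Counts were fitted with edgeR 4.0.16 (R 4.3.3), by its quasi-likelihood test with TMM scaling, genotype as the only term, all 9 libraries and filterByExpr with a minimum count of 10. P-values were adjusted by Benjamini-Hochberg over 17173 genes with a threshold of 0.05, and CPM values are TMM-scaled. Alternatives were DESeq2 1.42.0, other filters and scalings, a factor of unwanted variation, the replicate number as a block, and each library left out. The edgeR and DESeq2 scripts were tested on simulated data with known changes. Near-identical copies (at least 90% identity over 50% of a transcript) were found with minimap2 2.31, and gene positions come from the mm10 annotation. Promoter windows come from RefSeq.

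The members, gene lists and marker lists were chosen with earlier results of these data known. Libraries are printed one by one for 9 members in every case and, per comparison, for the 3 members with the largest rise and the 3 with the largest fall among those called whose groups did not overlap. Pathway genes are named as up to 3 per list with the smallest adjusted p, and 1 gene that this rule names is not reported here.

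Same-numbered euploid and Ts65Dn libraries deviated weakly together from their group means (r = 0.129, 0.206 and 0.263). For the libraries labelled Ts65Dn;Brwd1+/- same-number values differed in sign, from -0.162 to 0.186 against euploid and from -0.125 to 0.279 against Ts65Dn. A pair with different numbers, Ts65Dn replicate 2 and Ts65Dn;Brwd1+/- replicate 1, had 0.248. Whether the numbers pair libraries is therefore not known. The labels do not say what a number stands for. No replicate pair agreed within sampling noise.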

Additional observations from a re-analysis of the deposited data

How the results depend on the processing

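Of 190 recomputed isoform shares and counts, 178 were rated as the same. For a share this means a shift smaller than the replicate spread. For a count it means only a number near the main one, not the same members. The 13 members called in Ts65Dn against euploid without euploid replicate 2, with 4 of 17 calls lost, were rated as the same. Of 768 recomputed fold changes of the 16 members printed per library, 740 kept their side of the threshold, 25 gained a call and 3 lost it, and no called member changed sign, while fold changes near 0 that were not called did (Ldha in Ts65Dn against euploid was 0.01 without Ts65Dn replicate 3, against -0.08). Leaving out 1 library at a time gave 13 to 17 members called in Ts65Dn against euploid (glycolytic 3 to 7, other 9 to 10; 38.2% to 45.1% of all genes), 20 to 22 in libraries labelled Ts65Dn;Brwd1+/- against Ts65Dn (11 to 13, and 9; 48.7% to 57.8%) and 13 to 17 against euploid (6 to 10, and 7 to 8; 21.2% to 33.0%). Adding 1 factor of unwanted variation (RUVr type) raised the glycolytic calls of libraries labelled Ts65Dn;Brwd1+/- against euploid from 7 to 12, and the share of all genes called from 29.2% to 38.1%. For that shift, and for the lower glycolytic count of 3 without euploid replicate 2, the cause was not tested. Without division by exon length the shift in the share of Pfkl in Ts65Dn against euploid became 4.16 percentage points and that of P4ha1 2.79, and that of P4ha1 in libraries labelled Ts65Dn;Brwd1+/- against Ts65Dn became -4.64.

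The SMARCA2/4 ChIP lists of Ts65Dn and Ts65Dn;Brwd1+/- named 0 and 2 members at q under 0.05 and fold enrichment over 1.2, and 0 and 1 at q under 0.01. By position within 3 kb of the start, the list of Ts65Dn;Brwd1+/- named 3. At a reciprocal overlap of 50%, 0 euploid ChIP peaks at members met a peak of the Ts65Dn;Brwd1+/- list, and 0 in the opposite direction, since the criterion is stricter than 1 bp.

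With the replicate number as a block, 18, 22 and 16 members were called in the 3 comparisons in the order above, against 17, 21 and 14. The shares of all genes called were 48.6%, 59.8% and 31.4%, against 46.7%, 58.1% and 29.2%. The block changed no call of the 16 members printed per library beyond Slc2a1 in Ts65Dn against euploid and Slc2a3 in the other comparisons (log2 fold change 0.48, edgeR adjusted p = 0.0139, against Ts65Dn, and -0.46, edgeR adjusted p = 0.0307, against euploid). The lowest counts lie behind Ankrd37, at 4 to 13 per library, and Slc16a3, at 15 to 32.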

Other observations

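Of 7 genes of the pentose phosphate pathway, 4 rose and none fell in Ts65Dn against euploid, with Tkt, transketolase, at 304 to 372 CPM in euploid and 456 to 472 CPM in Ts65Dn (log2 fold change 0.47, edgeR adjusted p = 0.00182). Taldo1 and the X-linked G6pdx, the entry enzyme, had 0.30 and 0.42 (edgeR adjusted p = 0.00552 and 0.00698). In libraries labelled Ts65Dn;Brwd1+/- against Ts65Dn, 2 of the 7 fell and none rose. Of 16 citric acid cycle genes, 2 rose and 3 fell in Ts65Dn and 2 rose and 2 fell in the next comparison. Over all genes tested, 25.6% were higher and 21.1% lower in Ts65Dn, and 27.6% higher and 30.5% lower in the next comparison. The subunits of succinyl-CoA ligase Suclg1 and Suclg2 had log2 fold changes of 0.35 and 0.33 in Ts65Dn against euploid (edgeR adjusted p = 0.00357 and 0.0793), and in the next comparison -0.37 and -0.80 (edgeR adjusted p = 0.00139 and 9.66e-04).

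Other marker lists are given as summed CPM in euploid, Ts65Dn and libraries labelled Ts65Dn;Brwd1+/- in that order. Over all genes tested, 25.6% were higher and 21.1% lower in Ts65Dn. Glutamatergic markers ran 1144 to 1478, 348 to 784 and 1143 to 1534 CPM, with 10 of 12 lower and none higher in Ts65Dn. GABAergic markers ran 604 to 664, 142 to 240.3 and 1079 to 1210.1 CPM, with all 12 lower in Ts65Dn. Astrocyte markers ran 3598 to 4433, 4080.1 to 4773 and 4164 to 4723 CPM, with 5 higher and 2 lower of 11 tested, and Gjb6 was under 1 CPM. Radial glia markers ran 3521 to 4161, 6283 to 8117 and 2663 to 3098 CPM, with 5 higher and 6 lower. Oligodendrocyte lineage markers ran 362 to 415, 613 to 714 and 958 to 1159.7 CPM, with 3 higher and 1 lower of 10 tested in Ts65Dn, and Olig1, on chromosome 16, alone gave 385 to 500.3 CPM there. Cell cycle genes ran 289 to 310.3, 398 to 467 and 701 to 712 CPM, and all 12 rose in Ts65Dn. Microglial markers ran 27.1 to 38.8, 44.9 to 55.0 and 18.4 to 25.2 CPM, with Tmem119, P2ry12, Trem2 and Tyrobp under 1 CPM. Choroid plexus markers ran 119.8 to 729.9, 207 to 263 and 33.0 to 45.4 CPM, with euploid replicate 2 alone at 729.9 CPM and 4 higher and 3 lower of 11 tested in Ts65Dn. Folr1, at 105 to 141 CPM, and Otx2, at 58.4 to 69.9 CPM, gave most of the sum in Ts65Dn, while Ttr, Tmem72 and Aqp1 fell there. In all, 8 of 8 blood genes were under 1 CPM in every library. The part of these lists in the results was not tested.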
